A study of Mus musculus with 2 samples.

Results

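The PYHIN family of the mouse Ifi200 locus was examined in leukocytes sorted from islets of NOD mice. The 10 members are Ifi203, Ifi204, Ifi207, Ifi208, Ifi209, Ifi211, Ifi213, Ifi214, Mndal and Aim2, found by symbol among the 32285 genes of the deposited tables, and all 10 were present. They were grouped because Ifi214 was lower in B cells of one of the libraries, so that difference chose the members and is given as a description only. The levels of the other members in that same contrast are described in the same way.

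The samples are 2 single-cell RNA libraries, 1 per group, so no difference has a replicate check, no test was made and no p-value is given. The first group is 12-week-old female NOD mice, the inbred strain whose islets are infiltrated and destroyed by its own lymphocytes (the WT library). The second is female NOD mice of the same age labelled NOD.Cxcl16-/-, in which the chemokine gene Cxcl16 should be lacking (the KO-labelled library). In both groups hand-picked islets from collagenase-treated pancreas were brought into single-cell suspension, and live cells were sorted that carried CD45, the pan-leukocyte marker, and not CD31, an endothelial marker. How many mice each library pools is not given in the sources used here.

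The WT library held 13859 barcodes and 93553185 UMIs (unique molecular identifiers, 1 per captured mRNA molecule), and the KO-labelled library 10554 barcodes and 98681133 UMIs. Cxcl16, the targeted gene, was present in both libraries, against the label: it stood at 103 CPM (UMIs of the gene scaled to a fixed total per library or class) over all WT barcodes and 102 CPM over all KO-labelled ones. In the 3 of the 10 classes with the highest levels, Cxcl16 was 738 and 478 CPM (macrophage-like), 837 and 599.7 CPM (migratory DC-like) and 299 and 278 CPM (cDC1-like), lower in the KO-labelled library each time. Which part of the gene was deleted is not given in the sources used here, so 3' tags may lie outside it and do not settle the genotype. Cells with at least 500 detected genes and at most 10% mitochondrial UMIs were sorted into classes by marker genes, and classes are called "like" their type for that reason. Of 12252 and 10214 such cells (WT, KO-labelled), 56.4% and 63.3% passed a gate, 14 and 26 passed more than 1, and the others stayed unnamed. The 2 libraries shared 45 barcodes. In each of the 10 classes with 50 cells in each library its own markers, on which it was gated, were each found in at least 20% of cells, except 1 of 7 in macrophage-like cells. These 10 classes were B-like (1836 and 2139 cells), CD8 T-like (2704 and 1593), CD4 T-like (1408 and 1391), Treg-like (307 and 467), gamma-delta T-like (140 and 122), NK-like (77 and 71), macrophage-like (117 and 249), cDC1-like (53 and 75), migratory DC-like (60 and 69) and plasma cell-like (93 and 100).

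PYHIN proteins typically carry a pyrin domain, which binds other pyrin-domain proteins, and HIN domains, which bind double-stranded DNA. Not every gene of the family encodes both. AIM2 is the best understood of them: on cytosolic DNA it recruits the adaptor ASC (gene Pycard) and caspase-1, which releases interleukin-1 beta and interleukin-18 and opens gasdermin D pores. IFI204, often compared with human IFI16, is linked to STING and interferon beta induction, and several Ifi200 genes are themselves induced by interferon. Interferon-driven gene expression is a known feature of islets in NOD mice, and macrophages, dendritic cells, B cells and T cells all take part in the insulitis.

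On build GRCm38, in the GENCODE M21 annotation, the members lay in 1 stretch of chromosome 1, chr1:173350879-174031810, 681 kb long, together with Ifi206, Ifi202b and Ifi205, which are family genes but not members. Aim2 stood at its left end, at chr1:173350879-173466040 on the plus strand. Ifi214 lay at chr1:173519717-173535957 on the minus strand, between Ifi206 and Ifi213. The upstream flank of Ifi214 is shown because it holds a match to GAAANNGAAA, a core of the interferon-stimulated response element, a site bound by IRF proteins. The sequence is RefSeq's (GRCm38.p6), 250 bases before to 50 after the start, chr1:173535908-173536207, minus strand, 5′ to 3′, with the match in capitals.
Ifi214: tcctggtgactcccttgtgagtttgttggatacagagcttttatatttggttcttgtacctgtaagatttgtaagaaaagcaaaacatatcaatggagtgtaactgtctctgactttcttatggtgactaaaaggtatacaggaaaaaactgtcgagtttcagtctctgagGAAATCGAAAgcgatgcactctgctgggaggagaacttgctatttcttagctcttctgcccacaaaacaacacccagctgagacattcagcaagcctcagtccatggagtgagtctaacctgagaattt
The corresponding stretch of Aim2, chr1:173420354-173420653 on the plus strand, is shown beside it because it held no match on either strand. This RefSeq start lies inside the GENCODE span of Aim2 given above and not at its left end, whose flank was not searched.
Aim2: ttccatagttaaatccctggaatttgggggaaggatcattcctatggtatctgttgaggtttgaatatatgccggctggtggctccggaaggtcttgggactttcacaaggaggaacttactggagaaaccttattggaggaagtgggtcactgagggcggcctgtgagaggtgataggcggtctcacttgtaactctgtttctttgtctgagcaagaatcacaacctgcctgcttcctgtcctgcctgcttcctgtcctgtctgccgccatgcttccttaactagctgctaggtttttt

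RefSeq promoter entries of this length matched 9 of the 10 members by symbol; Ifi204 had none. GAAANNGAAA, searched on both strands, was present in 7 of those 9, all but Aim2 and Ifi209, and in Ifi206 and Ifi205. Mndal and Ifi203 had 2 entries each, of which both held a match in Mndal and 1 in Ifi203. Of all 32851 promoter windows of the table, 3.44% held it. A core of the gamma-activated site, TTCNNNGAA, was in none of the 9 members and in 8.30% of all windows, and no window of the locus held both motifs. The 40 bases around the match on the gene's own strand are printed so that their likeness can be seen, each 5′ to 3′ with the core in capitals.
Ifi214: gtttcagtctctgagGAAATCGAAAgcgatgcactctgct
Ifi213: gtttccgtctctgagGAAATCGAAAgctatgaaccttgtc
Ifi208: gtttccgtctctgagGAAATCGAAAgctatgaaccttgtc
Ifi206: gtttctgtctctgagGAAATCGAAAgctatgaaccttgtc
Ifi207: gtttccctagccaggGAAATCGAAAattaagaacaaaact
Ifi211: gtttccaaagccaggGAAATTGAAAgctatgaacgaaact
Ifi205: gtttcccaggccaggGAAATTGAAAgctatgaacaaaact
Mndal: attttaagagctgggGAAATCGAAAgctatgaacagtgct
Ifi203: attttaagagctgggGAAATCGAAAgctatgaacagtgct
Ifi208 is on the plus strand and the others are on the minus strand. The windows lay at chr1:173536012-173536051 (Ifi214), chr1:173599321-173599360 (Ifi213), chr1:173673592-173673631 (Ifi208), chr1:173491334-173491373 (Ifi206) and chr1:173741826-173741865 (Ifi207). Those of the right end were chr1:173913059-173913098 (Ifi211), chr1:174031865-174031904 (Ifi205), chr1:173880199-173880238 (Mndal) and chr1:173942503-173942542 (Ifi203). The windows of Ifi213 and Ifi208 were the same sequence, as were those of Mndal and Ifi203. The core began 79 bases before the start of Ifi214 and between 35 and 73 bases before that of the other 6 members. Among the members alone, promoters paired off: Ifi208 and Ifi213 were identical at 98.9% of 285 aligned bases, Ifi203 and Mndal at 94.3% of 299, and Ifi211 and Ifi207 at 88.0% of 291. Non-members were as near: Ifi206 was identical to Ifi208 at 98.9% of 282 bases and to Ifi213 at 98.5% of 267. Ifi205 was identical to Ifi211 at 93.5% of 201. Ifi209 was the closest to Ifi214, identical at 95.7% of 300 bases, and still had no match. Its stretch aligned with the Ifi214 window, chr1:173630765-173630804 on the plus strand, is printed with capitals at the 4 bases that differ from Ifi214.
Ifi209: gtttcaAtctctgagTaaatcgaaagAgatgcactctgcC
Counted from 1 at the 5′ end of the window, with the base of Ifi214 first, the difference inside the core was G16T, and those outside it were G7A, C27A and T40C. A match is a description of these letters and says nothing of binding.

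Near-identical copies also limit which gene a read can be given to. In the last 500 bases of the annotated coding transcripts, 58.5% of the 91-base words of Ifi214 recurred in Ifi209 and the same share of those of Ifi209 in Ifi214. For Ifi211, 59.0% recurred, mostly in Ifi205. The share was 7.32% for Ifi213, 4.14% for Mndal, 1.71% for Ifi208 and 0% for Aim2, Ifi203, Ifi204 and Ifi207. The annotation of Mndal overlaps Ifi211 and Ifi203 on the same strand. Reads in these shared stretches cannot be placed with certainty, so Ifi214 with Ifi209, Ifi211 with Ifi205, and Mndal with its overlapping neighbours are reported as uncertain to that extent. The mm10 reference is the C57BL/6J genome, and how NOD alleles of this locus align to it was not tested. UMIs of a 3' library are not scaled by length, so levels are compared below between classes and libraries and never between genes.

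The members differed in where they were found. Ifi203, Ifi208, Ifi214, Aim2 and Mndal were highest in lymphocytes, and Ifi204, Ifi207, Ifi209 and Ifi211 in macrophage-like or dendritic cells. Ifi203, Aim2, Ifi209 and Mndal were present at 10 CPM or more in each of the 10 classes. These are descriptions, with exact Poisson intervals at the 95% level that cover counting error only.

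Ifi214 was highest in B-like cells of the WT library, at 44.7 CPM (interval 40.7 to 48.9, 465 UMIs), and stood apart from the next class. CD8 T-like cells followed at 31.8 CPM (29.4 to 34.3), with gamma-delta T-like at 28.9, Treg-like at 22.3, NK-like at 19.0, CD4 T-like at 13.8 and macrophage-like at 12.1 CPM, each neighbour in this order overlapping the next. It was lowest in migratory DC-like (4.16 CPM), plasma cell-like (3.88 CPM) and cDC1-like cells (3.62 CPM), on 3 to 6 UMIs each. In the KO-labelled library B-like cells were again first, at 22.9 CPM, with no gap to gamma-delta T-like (19.5 CPM) and CD8 T-like cells (17.9 CPM). Ifi208 was highest in gamma-delta T-like cells of both libraries, at 50.3 CPM (36.0 to 68.5) and 43.8 CPM (28.9 to 63.7). It had 0 UMIs in WT cDC1-like and in KO-labelled migratory DC-like cells, where the intervals reached 3.34 and 4.37 CPM.

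Ifi203 was nearly level among lymphocytes, from 139 CPM in CD4 T-like to 171 CPM in NK-like cells of the WT library, with overlapping neighbours throughout. It was lower in macrophage-like cells (111 CPM in WT) and in plasma cells, cDC1 and migratory DC it was 31.7, 23.5 and 19.4 CPM. Mndal, a gene resembling human MNDA, ranged from 64.0 CPM in plasma cell-like to 261 CPM in B-like cells of the WT library, and the 8 classes from B-like down to cDC1-like each overlapped the next in order. Aim2 was highest in NK-like (130 CPM, 93.0 to 176), B-like (124 CPM, 117 to 131) and gamma-delta T-like cells (121 CPM, 97.8 to 148) of the WT library, a group that stood apart from Treg-like cells at 78.1 CPM. The lowest Aim2 levels were in plasma cell-like cells, at 31.7 and 30.7 CPM, where the immunoglobulin share lowers the CPM of every other gene. The place of this class in the order without immunoglobulin was not tested. Ifi209 was highest in migratory DC-like cells, at 101 and 71.1 CPM, ahead of B-like cells with overlapping intervals.

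Ifi207 was highest in macrophage-like cells, at 171 CPM (152 to 193) in the WT library and 260.1 CPM (244 to 277) in the KO-labelled one, apart from cDC1-like cells at 65.1 and 78.5 CPM. In B-like and CD8 T-like cells it was between 3.46 and 5.48 CPM. Ifi211 was highest in cDC1-like cells (166 and 137 CPM) and apart from macrophage-like cells (59.9 and 55.6 CPM) in both libraries. Ifi204 was highest in macrophage-like (73.3 and 52.6 CPM) and cDC1-like cells (59.7 and 38.9 CPM), and between 8.11 and 16.0 CPM in B-like cells and the T-like and NK-like classes of both libraries. Ifi213 had at most 13 UMIs in any class and was not measurable at this depth. Over the 20 points of 10 classes by 2 libraries, log2(CPM + 1) of Ifi214 correlated with Ifi208 at r = 0.86 and with Ifi203 at r = 0.85, and inversely with Ifi211 (r = -0.64) and Ifi207 (r = -0.60). Ifi207 and Ifi204 went together at r = 0.84. These points share libraries and depth, and the values are descriptions.

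**Figure D1:**
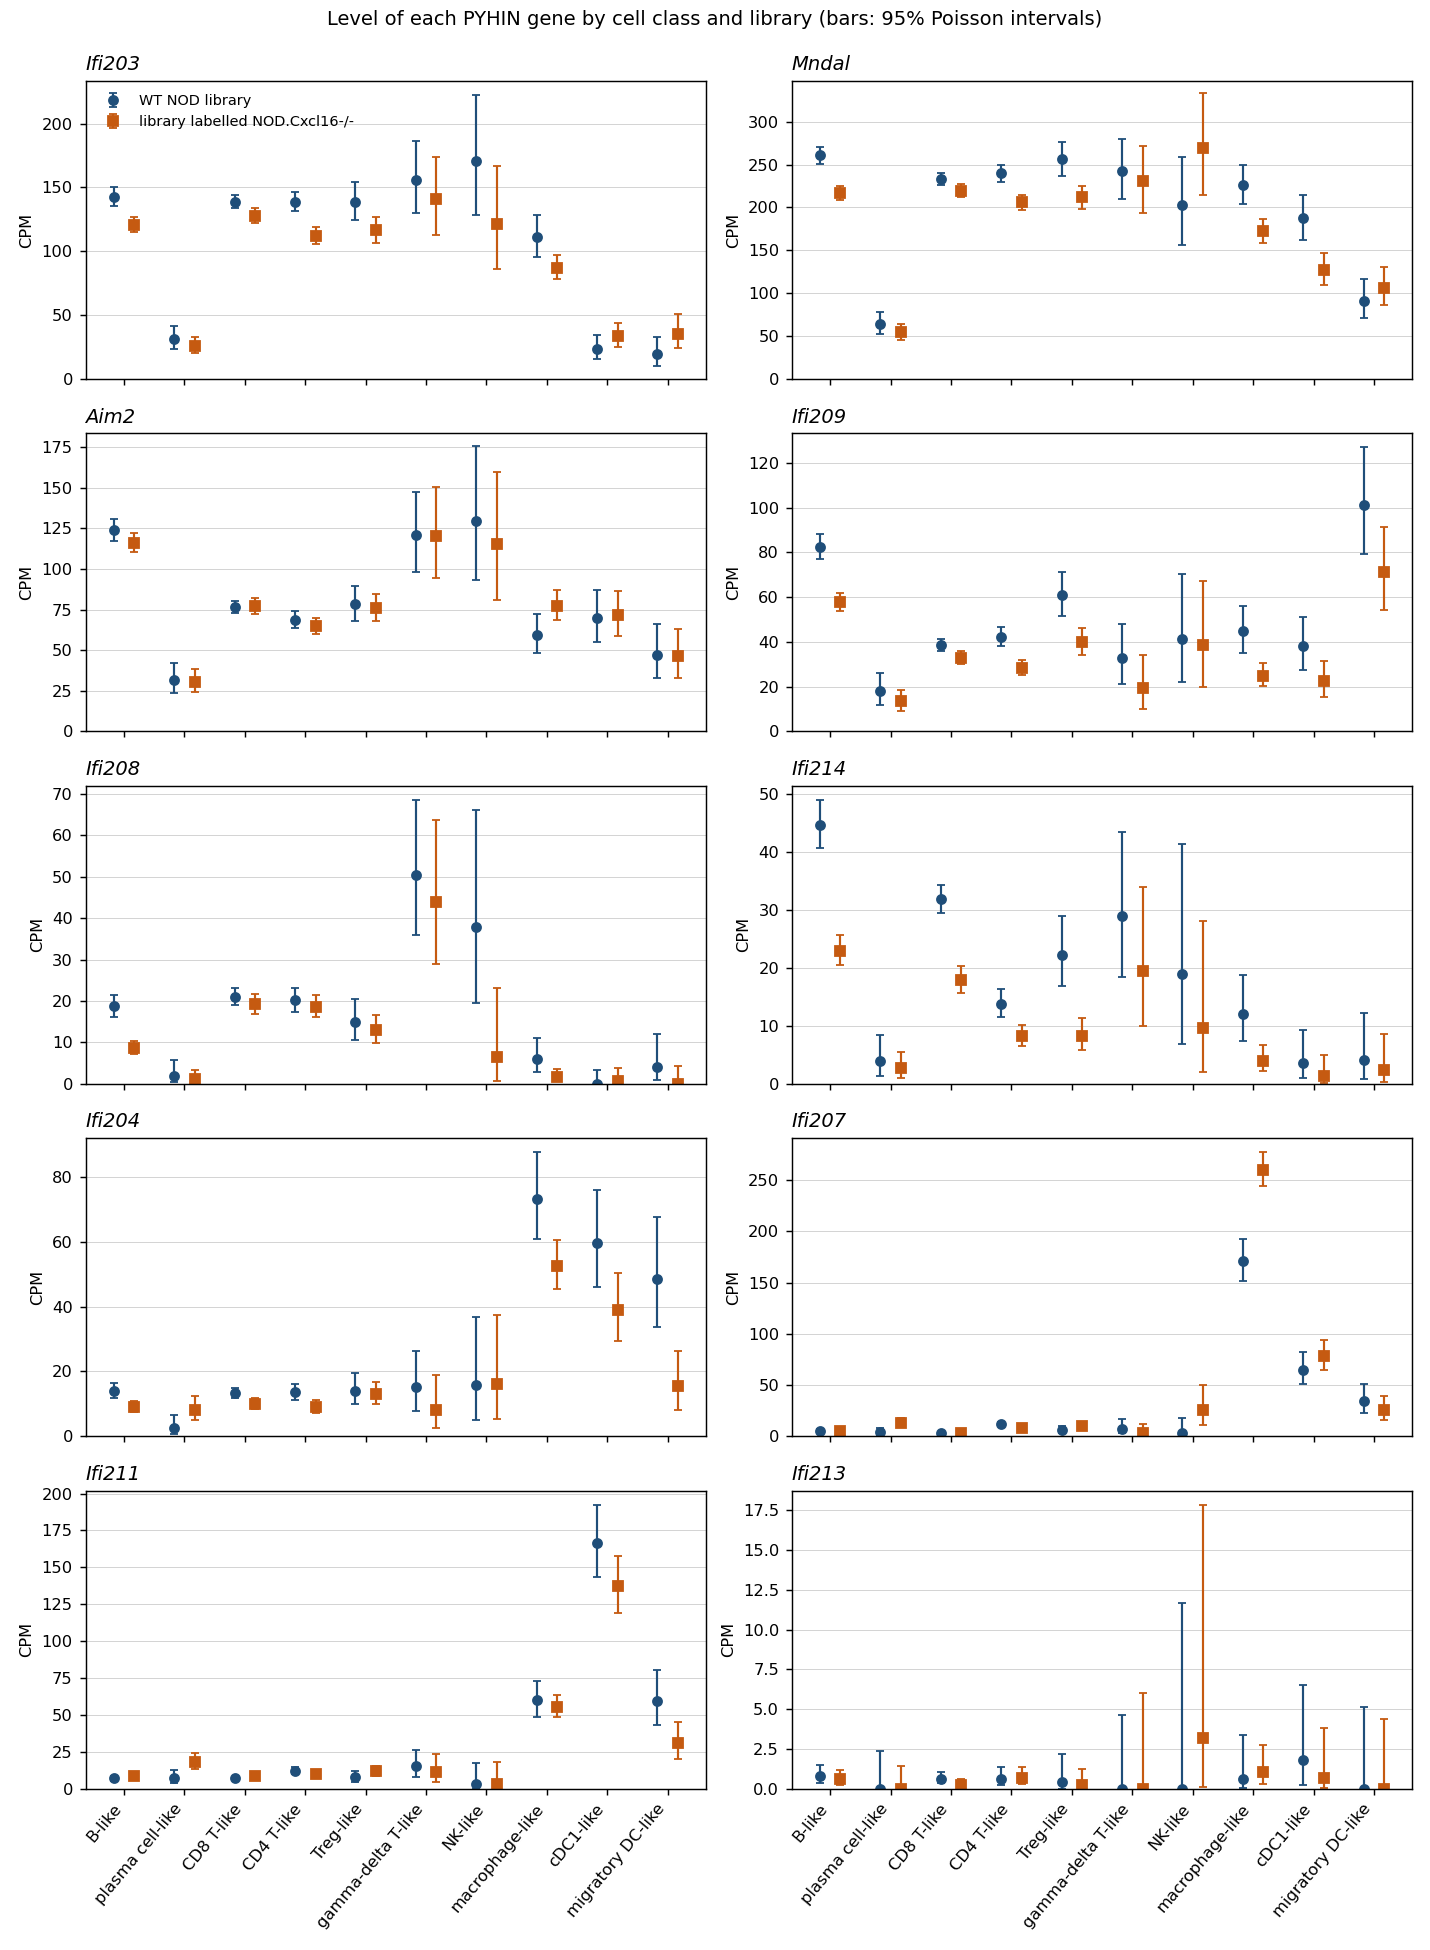
Level of each member (vertical axis, CPM, from 0) in 10 cell classes (horizontal axis), with 1 point for each library and bars for exact 95% Poisson intervals. Ifi214 is highest in B-like cells at 44.7 CPM (WT) and 22.9 CPM (KO-labelled), while Ifi207 peaks in macrophage-like cells at 171 and 260.1 CPM.

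Between the libraries, ratios are the KO-labelled over the WT library on the log2 scale after adding 1 CPM, which understates changes of low genes, with exact conditional binomial intervals at the 95% level for counting error. In B-like cells Ifi214 stood at 44.7 CPM in the WT and 22.9 CPM in the KO-labelled library, a log2 ratio of -0.93 (-1.14 to -0.73). This is the value for which the members were chosen. Of 7533 genes with at least 10 CPM in either library of this class, 16 had a lower ratio. The other classes were not part of the choice, although they come from the same libraries. In CD8 T-like cells Ifi214 was 31.8 and 17.9 CPM (log2 ratio -0.80, -1.0 to -0.59), and in CD4 T-like cells 13.8 and 8.27 CPM (-0.67, -1.04 to -0.30). Treg-like cells had 22.3 and 8.33 CPM (-1.32, -1.89 to -0.75), and macrophage-like cells 12.1 and 4.03 CPM on 20 and 15 UMIs (-1.38, -2.26 to -0.48). These 20 UMIs lay in 16 of 117 cells and the 15 in 12 of 249. In these 5 classes the interval lay below 0. The ratio was also below 0 in the 5 smaller classes, with intervals that spanned 0 on 2 to 23 UMIs a library. Ifi214 was not alone in this: Ifi209 and the non-member Ifi206 were below 0 in all 10 classes, with intervals below 0 in 6 and 4. Ifi203, Mndal and Ifi204 were below 0 in 8 classes each, with intervals below 0 in 5, 6 and 6. The interval of Ifi204 was above 0 in 1 class. That of Ifi207 was above 0 in 3 classes and below 0 in 1, and that of Aim2 above 0 in 1 and below 0 in 0.

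The share of cells with an Ifi214 UMI was also compared at equal depth. After each cell was thinned to 2000 UMIs, 159 of 1706 WT B-like cells (9.32%, exact binomial 7.98 to 10.8) and 119 of 2079 KO-labelled ones (5.72%, 4.76 to 6.81) had 1 or more, with 130 and 60 shallower cells left out. Counted on all UMIs, with medians of 4584 and 4687 a cell, 19.0% and 12.1% had one. In CD8 T-like cells the thinned shares were 7.32% and 4.41%, with 463 and 73 cells left out. Classes low in Ifi214 are set beside these shares. Of plasma cell-like cells 0 of 82 and 0 of 92 had a UMI after thinning. That allows shares of up to 3.66% and 3.26% by the limit of 3 counts, and 4.40% and 3.93% by the exact interval. In cDC1-like cells the shares were 1.89% and 1.35% (1 cell each, intervals to 10.1% and 7.30%). Median depths before thinning were 15311 and 25608 UMIs in plasma cell-like and 20821 and 18501 UMIs in cDC1-like cells. Thinning removes a larger part of the UMIs of these deeper cells, those of free RNA included. Their shares therefore do not bound what free RNA could give in the shallower B-like and T-like cells. The B-like and CD8 T-like shares were above the plasma cell-like limits of their own library. They were below the upper ends of the cDC1-like intervals, which rest on 53 and 74 cells. In CD4 T-like cells, at 3.30% and 1.92%, the share was below the plasma cell-like limits. The part of free RNA in any of these shares was not tested.

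B-like cells were divided by markers of follicular cells (Fcer2a, Cr2, Ighd), of a Bhlhe41 group (Bhlhe41, Zbtb32, Fcrl5, Cd9), of germinal centre cells (Mef2b, S1pr2, Rgs13) and of the cell cycle, each requiring 2 markers. The follicular and Bhlhe41 groups leave out cells of every other group, and germinal centre cells may be cycling. Ifi214 was highest in cells with follicular markers, at 56.5 CPM in 952 WT cells and 37.2 CPM in 1048 KO-labelled cells (log2 ratio -0.59, -0.86 to -0.32). Cells with Bhlhe41 markers had 29.6 and 11.8 CPM (-1.26, -2.13 to -0.40). In cells with germinal centre markers it was 2.38 and 1.76 CPM, on 1 and 3 UMIs in 18 and 63 cells. Cycling B-like cells had 11.9 and 2.57 CPM on 17 and 7 UMIs, against 49.9 and 28.0 CPM in the others.

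The same division held in T cells: CD8 T-like cells had 14.2 and 5.19 CPM when cycling and 47.6 and 26.4 CPM when not. Cycling and germinal centre cells were low in Ifi214 in both libraries. The KO-labelled library held more of them among B-like cells (104 against 62, and 63 against 18, of 2139 and 1836). Among CD8 T-like cells it held fewer cycling ones (263 of 1593 against 585 of 2704). Other members were also lower in cycling than in other WT B-like cells, such as Ifi203 (70.1 and 154 CPM) and Mndal (140 and 280 CPM). Ifi207 was not (6.31 and 5.34 CPM). Median depths of these WT cells were 17723 and 4515 UMIs. The part of cycling and germinal centre cells in the ratio over all B-like cells was not tested. The subset values re-divide the cells of the contrast that chose the members. Among the other members in cells with follicular markers, Ifi208 was 26.7 and 11.4 CPM (-1.15, -1.59 to -0.72) and Ifi209 96.5 and 76.8 CPM (-0.33, -0.52 to -0.13). The intervals of the remaining members there spanned 0. Mndal was 286 and 277 CPM (-0.048, -0.16 to 0.06), Ifi203 167 and 171 CPM (0.04, -0.10 to 0.18) and Aim2 118 and 115 CPM (-0.03, -0.20 to 0.14).

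**Figure D2:**
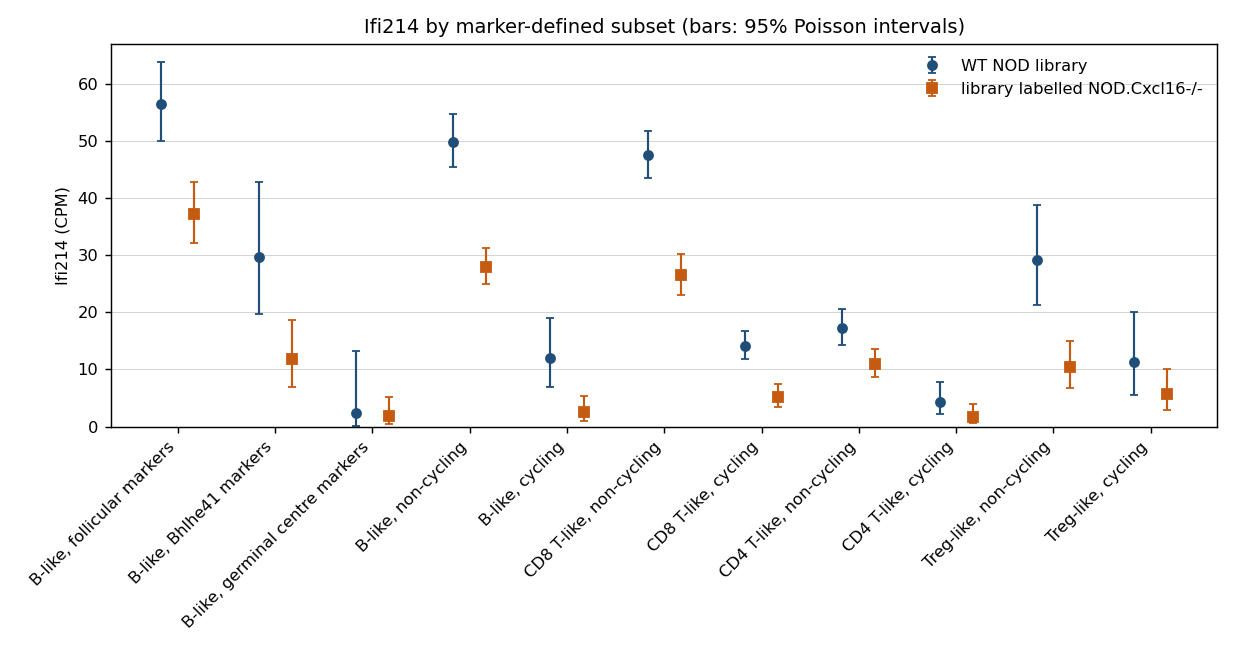
Level of Ifi214 (vertical axis, CPM, from 0) in subsets of B-like, CD8 T-like, CD4 T-like and Treg-like cells (horizontal axis), with 1 point for each library and bars for exact 95% Poisson intervals. The KO-labelled point is below the WT point in each subset, on 1 and 3 UMIs in B-like cells with germinal centre markers.

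In B-like cells 7 members had at least 10 CPM in either library and entered the count. A 1.5-fold difference was the size called, and 2 of the 7, Ifi208 and Ifi214, were lower by that much, beside 0.85% of all 7533 genes. None was higher, beside 2.1% of all genes. All 7 had ratios below 0, with a median of -0.50, while 39.9% of all genes did, with a median of 0.05. Since this contrast chose the members, nothing is read from these shares.

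Ifi208 in B-like cells was 18.7 CPM in the WT and 8.64 CPM in the KO-labelled library (log2 ratio -1.03, -1.34 to -0.72). In cells without a UMI of the interferon-stimulated list described below its ratio was -0.38, in 463 and 551 cells. Ifi209 was 82.4 and 57.8 CPM (-0.50, -0.64 to -0.37), and Ifi204 13.8 and 9.01 CPM (-0.57, -0.89 to -0.24). Mndal was 261 and 217 CPM (-0.27, -0.34 to -0.19) and Ifi203 143 and 121 CPM (-0.24, -0.34 to -0.14). In cells thinned to 2000 UMIs the ratio was -1.27 for Ifi204, -0.17 for Mndal and -0.08 for Ifi203. Aim2 differed least among the 7, at 124 and 116 CPM (-0.09, -0.20 to 0.01), with an interval that reached 0. Ifi207, Ifi211 and Ifi213 were below 10 CPM in both libraries, and their intervals spanned 0. The 10 members together came to 700.3 CPM in the WT and 566 CPM in the KO-labelled library (-0.31, -0.35 to -0.26). Ifi206, the neighbour of Ifi214 that is not a member, was 28.4 and 12.3 CPM (-1.15, -1.41 to -0.88).

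In CD8 T-like cells only Ifi214 of the 7 members with 10 CPM was lower by 1.5-fold, beside 0.69% of 7679 genes, and none was higher, beside 0.846%. Ifi208, called in B-like cells, was 21.1 and 19.2 CPM here (-0.13, -0.34 to 0.08). The difference between the classes was not tested, with 1 library a group. The B-like and CD8 T-like intervals of Ifi208 did not overlap. Ifi206 was again lower, at 15.8 and 9.67 CPM (-0.66, -0.93 to -0.39). Aim2 was 76.4 and 77.1 CPM (0.01, -0.10 to 0.12), and Mndal 233 and 219 CPM (-0.09, -0.15 to -0.02). The members' sum was 564 and 517 CPM (-0.13, -0.17 to -0.08). Among CD8 T-like cells with no UMI of the interferon-stimulated list the ratio of the sum was -0.0063, in 520 and 299 cells.

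In CD4 T-like cells 9 members entered the count and all had ratios below 0, beside 46.7% of all genes. Ifi214 alone was lower by 1.5-fold, beside 1.35% of 7903 genes, and none was higher, beside 0.734%. Ifi209 was 42.3 and 28.6 CPM (-0.55, -0.76 to -0.34), and Ifi207 11.9 and 7.69 CPM (-0.57, -0.95 to -0.18). In Treg-like cells, regulatory T cells marked by Foxp3, Ifi209 (60.9 and 39.9 CPM) and Ifi214 were lower by 1.5-fold among 8 members, beside 2.89% of 8195 genes. None was higher, beside 2.89%. The sum was lower in both classes, at -0.27 (-0.33 to -0.21) and -0.26 (-0.36 to -0.17).

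The small lymphoid classes had wide backgrounds. In gamma-delta T-like cells Ifi204 and Ifi209 were lower by 1.5-fold among 8 members, beside 11.4% of all genes, and none was higher, beside 16.6%. Both intervals spanned 0. In NK-like cells Ifi208 (12 and 2 UMIs) and Ifi214 (6 and 3 UMIs) were lower, beside 19.0% of all genes, and Ifi207 was higher, beside 18.0%. The 8 UMIs of Ifi207 in the KO-labelled NK-like cells came from 1 of 71 cells. These shares are not far from the backgrounds, and none of these counts is a result about the members.

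Macrophage-like cells showed a different pattern among the members. Ifi207 was higher in the KO-labelled library, at 171 and 260.1 CPM on 283 and 969 UMIs (log2 ratio 0.60, 0.41 to 0.79), and was the 1 member of 8 called higher, beside 6.26% of 7782 genes. Its share of cells after thinning was 25.5% (17.5 to 34.9) and 37.3% (31.1 to 43.8). Ifi209 (44.8 and 25.0 CPM, -0.82, -1.26 to -0.37) and Ifi214 were called lower, beside 6.44%. Ifi204 was 73.3 and 52.6 CPM (-0.47, -0.80 to -0.14) and Mndal 226 and 172 CPM (-0.39, -0.58 to -0.20), both below the size called. Aim2 was slightly higher, at 59.3 and 77.3 CPM (0.38, 0.05 to 0.72). The opposite signs balanced, and the members' sum was 765 and 737 CPM (-0.054, -0.15 to 0.043). The non-member Ifi202b, known as a lupus candidate gene that lacks a pyrin domain, was 84.8 and 56.1 CPM (-0.59, -0.90 to -0.27). Insulin and other beta-cell marker transcripts came to 8464 and 7761 CPM in these cells, and their part in the ratios was not tested.

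In cDC1-like cells, cross-presenting dendritic cells marked by Xcr1 and Clec9a, Ifi204 (59.7 and 38.9 CPM) and Ifi209 (38.0 and 22.5 CPM) were called lower, beside 11.0% of 7512 genes, and none higher, beside 10.4%. Mndal was 187 and 127 CPM (-0.56, -0.85 to -0.27). In migratory DC-like cells Ifi204 (48.5 and 15.4 CPM, -1.59, -2.57 to -0.68) and Ifi211 (59.6 and 30.8 CPM, -0.93, -1.67 to -0.21) were called lower, beside 12.8% of 7392 genes. Ifi203 was called higher on 14 and 30 UMIs, beside 14.6%, with an interval that spanned 0. In plasma cell-like cells none was called lower, beside 4.59% of 6276 genes, and Ifi207 (6 and 34 UMIs) and Ifi211 (11 and 47 UMIs) were called higher, beside 21.8%. Ifi204 (4 and 21 UMIs) was below 10 CPM there. The 7 macrophage markers summed to 32.3 CPM in WT and 246 CPM in KO-labelled plasma cell-like cells, none of them in 20% of cells or more, and their part in these counts was not tested.

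**Figure D3:**
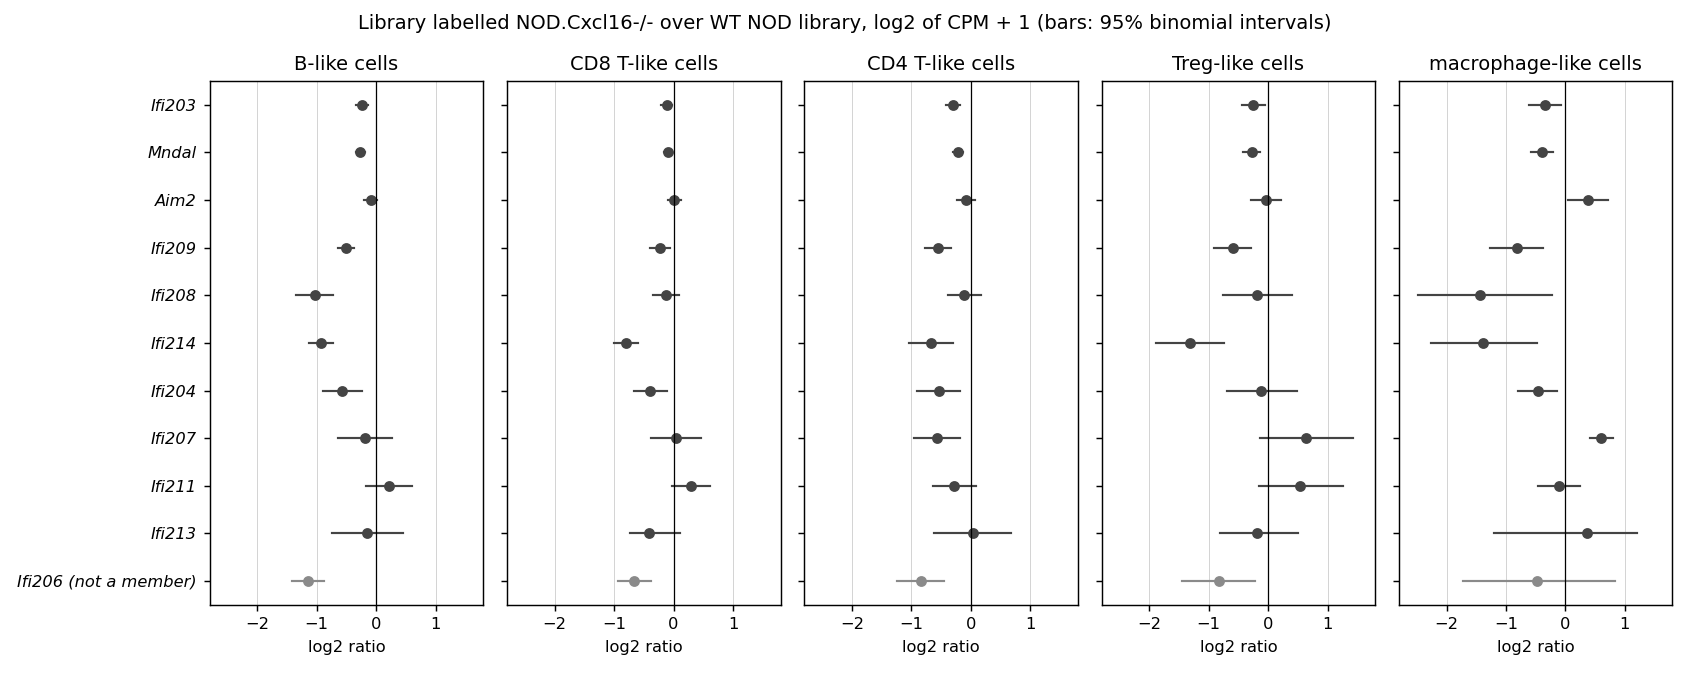
Log2 ratio of the KO-labelled over the WT library (horizontal axis, log2 of CPM + 1) for the 10 members and Ifi206 (vertical axis) in 5 cell classes, with bars for exact 95% binomial intervals and a line at 0. Ifi214 lies left of 0 in every panel (from -0.67 in CD4 T-like to -1.38 in macrophage-like cells), Ifi208 is far left in B-like but not in CD8 T-like cells, and Ifi207 lies right of 0 in macrophage-like cells at 0.60.

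The members' relation to interferon-stimulated genes was described within each library, a measure the choice of members did not use. Cells of a class were ranked by the share of their UMIs from 17 interferon-stimulated genes, none of them a member (Ifit1, Ifit2, Ifit3, Isg15, Oas1a, Oasl2, Rsad2, Ifi44, Ifih1, Ddx58, Rtp4, Bst2, Xaf1, Trim30a, Slfn5, Irgm1 and Gbp2), and the top 10% were set against the rest. This was done in B-like, CD8 T-like, CD4 T-like and macrophage-like cells of both libraries, which gives 8 splits. The top cells were slightly shallower in lymphoid classes, for example 4182 against 4611 median UMIs in WT B-like cells.

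Ifi203, Mndal, Ifi207, Ifi209 and Ifi211 were higher in the top cells in 8 of 8 splits with intervals above 0. Ifi204, Ifi208 and Ifi214 were so in 7 of 8. The ratios of Ifi204 and Ifi208 were above 0 in all 8. The remaining Ifi214 split, in KO-labelled macrophage-like cells, went the other way (-0.52). Ifi214 was 4.19 CPM in the other and 2.62 CPM in the top cells there, on 14 and 1 UMIs. How often genes outside the locus and the list were higher in top cells was not computed, so these counts have no background beside them. The median log2 ratio of top over other cells was 2.69 for Ifi207, 2.05 for Ifi211, 1.70 for Ifi208, 1.67 for Ifi214, 1.37 for Ifi209, 1.30 for Ifi204, 1.08 for Ifi203 and 1.05 for Mndal. Aim2 differed little: its ratio ranged from -0.22 to 0.41 with a median of 0.23, and its interval was above 0 in 3 of 8 splits. Aim2 was thus 123 CPM in the other and 135 CPM in the top WT B-like cells, while Ifi214 was 38.7 and 104 CPM. In the KO-labelled B-like cells Aim2 was 114 and 144 CPM and Ifi214 21.7 and 36.5 CPM. Ifi209, whose promoter window lacks the core, was 74.7 and 159 CPM in the other and top WT B-like cells. Its 3' end shares 58.5% of its words with Ifi214, and how far that affects these values was not tested. The widest split was that of the non-member Ifi205, at 1.69 and 63.8 CPM in WT B-like cells.

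The ratio of Ifi214 between the libraries on each side of this split is given as a description. In B-like cells it re-divides the contrast that chose the members. Cells were ranked within each library, so the share that parts top from other cells can differ between the libraries. That share and the list's level on each side are not given here. Most tested genes of the list had ratios below 0 in B-like and CD8 T-like cells, as given below. Top cells of the libraries are therefore not shown to be alike in interferon-stimulated level, and neither are the other cells. Among the other B-like cells Ifi214 was 38.7 CPM in the WT and 21.7 CPM in the KO-labelled library (log2 ratio -0.81, -1.03 to -0.59). Among the top cells it was 104 and 36.5 CPM (-1.48, -2.02 to -0.96). In CD8 T-like cells the ratio was -0.69 (-0.92 to -0.46) among the other and -1.23 (-1.71 to -0.77) among the top cells. In B-like cells with no UMI at all of the interferon-stimulated list it was -0.74. In CD8 T-like cells the ratio of Ifi203 was -0.0057 (-0.10 to 0.09) among the other and -0.74 (-0.96 to -0.52) among the top cells. That of Ifi209 was -0.07 (-0.26 to 0.11) and -0.93 (-1.34 to -0.53). Aim2 was -0.0062 and 0.20 there, with both intervals spanning 0. In B-like cells Ifi203 was -0.17 and -0.53, Ifi209 -0.43 and -0.88, Ifi204 -0.64 and -0.21, and Ifi207 -0.70 and 0.52 (22 to 42 UMIs).

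**Figure D4:**
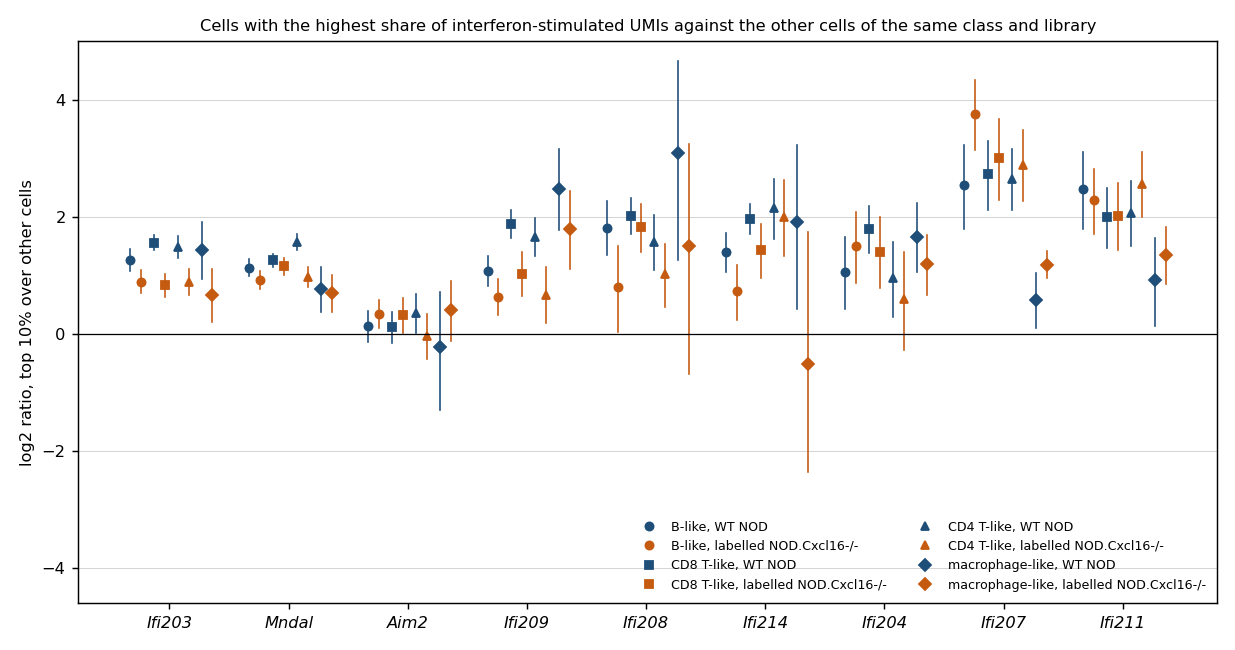
Log2 ratio of the level in the 10% of cells with the highest share of interferon-stimulated UMIs over that in the other cells of the same class and library (vertical axis) for 9 members (horizontal axis), with a marker shape for each class, a colour for each library and bars for exact 95% binomial intervals. Points of Aim2 lie between -0.22 and 0.41, and those of Ifi207 reach 3.76.

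The interferon-stimulated list itself differed between the libraries. Of its genes with 10 CPM, 7 of 9 had ratios below 0 in B-like cells (median -0.25), 12 of 13 in CD8 T-like (-0.43), 14 of 15 in CD4 T-like (-0.56), 15 of 15 in Treg-like (-0.82), 11 of 15 in gamma-delta T-like (-0.61) and 12 of 16 in macrophage-like cells (-0.29). By the 1.5-fold size 3 were lower and 0 higher in B-like, 6 and 0 in CD8 T-like, 7 and 0 in CD4 T-like, 9 and 0 in Treg-like, 8 and 1 in gamma-delta T-like and 6 and 0 in macrophage-like cells. Of all genes tested, 0.85% were lower and 2.1% higher by this size in B-like, 0.69% and 0.846% in CD8 T-like and 1.35% and 0.734% in CD4 T-like cells. The shares were 2.89% and 2.89% in Treg-like, 11.4% and 16.6% in gamma-delta T-like and 6.44% and 6.26% in macrophage-like cells. Ratios below 0 made up from 39.9% (B-like) to 53.1% (macrophage-like) of all genes tested in these classes, and their median lay between -0.02 and 0.10. The list went the other way in cDC1-like (0.39) and NK-like cells (0.61), and was -0.18 in migratory DC-like and 0.10 in plasma cell-like cells. The part of the list in the ratios of the members was not tested. The ratios on each side of the split, given above for some members, compare cells ranked separately in each library and do not settle it.

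Single genes of this list passed a log2 ratio of 1 in either direction. Ifit3, an interferon-induced RNA-binding protein, was lower in B-like (10.3 and 1.61 CPM, -2.11), CD8 T-like (-1.47), CD4 T-like (-1.52), Treg-like (-2.42), gamma-delta T-like (-1.59) and macrophage-like cells (-1.50). Oas1a was lower in CD4 T-like (-1.02) and macrophage-like cells (-1.51), and Rtp4 (-1.15) and Slfn5 (-1.31) in macrophage-like cells. In Treg-like cells Ifit1 (-1.29), Rsad2 (-2.18) and Xaf1 (-1.37) were lower as well. In gamma-delta T-like cells Ifit1, Ifit2, Rsad2, Ifih1 and Slfn5 were lower on 0 to 6 KO-labelled UMIs each. In cDC1-like cells Ifit1 (2.24), Ifit2 (1.09) and Rsad2 (1.83) were higher. Ddx58 and Irgm1 were higher in NK-like cells on 5 and 12, and 4 and 12, UMIs, and Isg15 in plasma cell-like cells (10.3 and 117 CPM, 3.38).

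Of 12 genes of interferon receptors and signalling, Irf7, the factor that amplifies interferon production, was the most marked. It was 305 and 65.8 CPM in macrophage-like cells (-2.20, -2.42 to -1.98), 231 and 28.4 CPM in migratory DC-like (-2.98), 163 and 51.9 CPM in cDC1-like (-1.63) and 53.1 and 17.8 CPM in Treg-like cells (-1.53). The median of the list stayed between -0.10 and 0.11 in B-like, CD8 T-like, CD4 T-like, Treg-like and macrophage-like cells. The small classes gave the other values past 1: Ifnar1 (-1.22), Ifngr2 (1.30) and Usp18 (-1.34) in gamma-delta T-like, Ifnar1 (1.11) in NK-like, and Ifngr1 (1.05) in migratory DC-like cells.

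The 13 partners in DNA sensing and the inflammasome, among them Pycard, Casp1, Gsdmd and Nlrp3, had medians of 0.05 in B-like (5 of 10 below 0), 0.11 in CD8 T-like (5 of 11), -0.10 in CD4 T-like (8 of 10) and -0.11 in macrophage-like cells (7 of 11). By the 1.5-fold size 0 were lower and 2 higher in B-like cells, beside 0.85% and 2.1% of all genes. In the other 3 classes 0 were past it in either direction, beside 0.69% to 6.44% of all genes lower and 0.734% to 6.26% higher. Il1b, the cytokine released downstream of AIM2, passed a log2 ratio of 1 in several classes. It was 30.5 and 65.3 CPM in B-like cells (1.08, 0.90 to 1.26), 327 and 676 CPM in migratory DC-like cells (1.04, 0.82 to 1.27) and 13.6 and 159 CPM in plasma cell-like cells (3.46). In NK-like cells Il1b had 0 and 37 UMIs and Nlrp3 0 and 8, and in gamma-delta T-like cells Il1b was lower, on 39 and 10 UMIs. The macrophage markers summed to 10.6 and 21.0 CPM in B-like and to 3.16 and 12.8 CPM in NK-like cells, with none in 20% of cells or more, and their part in these values was not tested. Il1b was among the 10 genes highest over the median of the other classes in cDC2-like cells (27 and 70 cells). The same held in Ly6c2-low monocyte-like cells (2 and 4 cells), but not in macrophage-like cells. Transcripts of these 2 classes and their part in the Il1b values were not tested.

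The 20 flanking genes described, 10 on each side, lay 8.89 to 4287 kb from the locus. Olfr433 was the one at 8.89 kb. The nearest on the left was Dusp23 at 718 kb, and the next on the right Fh1 at 1569 kb. Most of these genes thus lie farther off than the 681 kb locus is long. Of the 20, 12 had 10 CPM in B-like cells. None of the 12 was past 1.5-fold in either direction, 5 had ratios below 0 and the median was 0.06. In CD8 T-like and CD4 T-like cells 0 of 11 and 0 of 12 were past 1.5-fold, with medians of 0.00029 and 0.02. The counts were 8 of 13 higher in plasma cell-like cells (median 0.61), 3 of 15 higher in migratory DC-like, 1 of 13 higher in Treg-like and 1 of 17 higher in macrophage-like cells. Of all genes 21.8%, 14.6%, 2.89% and 6.26% were higher in these classes. In NK-like cells 3 of 12 were lower, beside 19.0% of all genes. In gamma-delta T-like cells 1 was lower and 2 higher of 11, beside 11.4% and 16.6%. In cDC1-like cells it was 0 of 16, beside 11.0% lower and 10.4% higher. In B-like, CD8 T-like and CD4 T-like cells at most 2.1% of all genes were past this size in either direction. Past a log2 ratio of 1, Pea15a was lower in NK-like cells (-1.16), Slamf8 in gamma-delta T-like cells (8 and 0 UMIs), and Slamf8 (1.12), Igsf8 (1.48) and Adss (1.23) were higher in plasma cell-like cells.

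By Pearson's r of log2(CPM + 1) over the 20 points of class and library, among 9183 genes, the 5 genes most like Ifi214 were Gm30054 (0.91), Pi4kb (0.91), mt-Nd4l (0.90), 1110038B12Rik (0.89) and Rpl22l1 (0.89). The 5 most like the sum of the members were Svbp (0.94), Wsb1 (0.94), Laptm5 (0.93), Cenpb (0.93) and Zfp622 (0.91). None of these 10 lies on chromosome 1, and the points share libraries and depth.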

How the data were processed

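The authors deposited raw UMI counts per gene and barcode, made with Cell Ranger 7.0.1 per the file headers and aligned to mm10 per the submitters' processing notes. Whether intronic reads were counted is not given in the sources used here. Of 32285 gene IDs, 32158 matched GENCODE M21. Cells needed 500 detected genes and at most 10% mitochondrial UMIs. Classes were gated on marker genes, with UMIs of opposing lineages at or below 0.1 of the cell's own marker UMIs. This threshold and the number of markers required were set after the data were seen. No doublet caller was run: mixed barcodes were removed by that rule and by dropping cells that passed more than 1 gate. UMIs were summed per class and library and scaled to CPM. Intervals are exact (Poisson, binomial, Clopper-Pearson) and cover counting error only. They were checked only on simulated Poisson counts without variation between cells. That check says nothing of how well they cover the spread of these data. Genes were tested for the size of a difference from 10 CPM in either library, and called at 1.5-fold. The members and lists were chosen with earlier results of these data known. Levels and ratios of all members were computed in every class with 50 cells in each library, and not all of them are printed. Genes of the other lists were named at a log2 ratio of 1 and 10 CPM. Of 8 other locus names listed, 5 were not matched, nor was Mx1 among 18 interferon-stimulated genes. Some fixed markers and list genes are not reported here, and B-cell subsets and the signalling list were computed without them. Scripts used Python 3.11.15, numpy 2.4.6, scipy 1.17.1, pandas 2.3.3 and Biopython 1.88.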

Additional observations from a re-analysis of the deposited data

Results flagged for a closer look

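The ratio of 3 members had opposite signs in 2 classes with both intervals away from 0. The differences were not tested, since each class has 1 library a group. Ifi204 was 2.93 apart on the log2 scale, at 1.34 in plasma cell-like cells (4 and 21 UMIs) and -1.59 in migratory DC-like cells (35 and 13 UMIs). Ifi211 was 2.16 apart, at 1.23 in plasma cell-like and -0.93 in migratory DC-like cells. Macrophage markers summed to 32.3 and 246 CPM in the plasma cell-like cells, and their part in the ratios was not tested. Ifi207 was 3.24 apart, at 2.68 in NK-like cells, where 1 cell held all 8 KO-labelled UMIs, and -0.57 in CD4 T-like cells (113 and 80 UMIs).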

How the results depend on the processing

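The ratios of the 10 members in B-like cells, and of their sum in B-like, macrophage-like and CD8 T-like cells, were recomputed under 10 alternatives and 2 added after seeing the data (no UMI of an opposing lineage at all, and no UMI of the interferon-stimulated list). The other ratios were not recomputed. Ifi214 in B-like cells stayed below 0 throughout, from -0.98 to -0.70. It left its interval for the mean of each cell's CPM (-0.73) and for cells thinned to 2000 UMIs (-0.70). The members' sum in B-like cells moved to -0.36 with median-of-ratios scaling, to -0.23 both for the mean of each cell's CPM and for thinned cells, and to -0.20 in cells without an interferon-stimulated UMI. In macrophage-like cells the sum moved to -0.31 with no exclusion of mixed barcodes, 0.046 in thinned cells and -0.65 in the 5 and 7 cells without an interferon-stimulated UMI. In CD8 T-like cells it moved to -0.26 with nearest-profile assignment and to -0.0063 without interferon-stimulated UMIs. The cause was not tested. For the other 9 members in B-like cells, 97 of 108 values stayed within the interval of the value reported and 11 moved. The sign changed in 5, all of members whose interval spanned 0: Ifi207 (0.04 with no opposing-lineage UMI), Ifi211 (-0.08 with no exclusion, -0.09 for the mean of each cell's CPM, -0.33 without interferon-stimulated UMIs) and Ifi213 (0.85 without them). Ifi208 was -0.62 with a pseudocount of 10 CPM. No paired analysis was possible because each group has 1 library. Members under 10 CPM are limited by depth.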

Other observations

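Among classes with fewer than 50 cells in a library, the members' sum was 1485 and 1405 CPM in classical monocyte-like cells (9 and 14 cells) and 1218 and 937 CPM in cDC2-like cells (27 and 70 cells), above its range of 165 to 765 CPM in the larger WT classes. Mndal in cDC2-like cells was 545 and 465 CPM. Ifi207 in classical monocyte-like cells was 334 and 340.4 CPM, on 27 and 55 UMIs. In ILC2-like cells, 27 and 58 in number, Ifi214 had 0 UMIs in both libraries, where the Poisson intervals reached 28.6 and 13.7 CPM, while Mndal was 302 and 190.0 CPM. Plasmacytoid DC-like cells (56 and 42 cells) had 1 UMI of Ifi214 in each library.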
